A study of Mus musculus with 9 samples.

Results

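The 32 genes described here are the enzymes and regulators of cholesterol and fatty acid synthesis, taken by gene symbol from a deposited table of 49585 gene rows. All 32 symbols had a row, and all 32 passed the filter on low counts that left 11619 genes for testing. They fall into a sterol branch of 19 genes, running from acetyl-CoA to cholesterol with 1 sterol transfer protein, a set of 5 regulators of the sterol regulatory element-binding proteins (SREBPs), and a fatty acid branch of 8 genes. The rule is a list of gene names, with no threshold on a measured value, but it was chosen with earlier results of these data known.

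Cholesterol is built from acetyl-CoA through mevalonate, isoprenoid pyrophosphates, squalene and lanosterol. Fatty acids are built from citrate-derived acetyl-CoA, which is carboxylated, joined into palmitate, then elongated and desaturated. Both branches are known targets of the SREBP transcription factors, which the sensor SCAP carries from the endoplasmic reticulum to the Golgi when sterols are scarce, while the INSIG proteins hold the complex back when sterols are plentiful. Proliferating blood cells draw on both branches for new membrane, and intermediates of the mevalonate pathway are also used to attach lipids to proteins.

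The libraries came from cells sorted out of mouse haematopoietic stem cell (HSC) expansion cultures, with 3 replicates of each of 3 populations. All 9 share their origin: wild-type C57BL/6 bone marrow cells of the CD34-CD150+KSL phenotype (Kit positive, Sca-1 positive, lineage negative), grown in F12 medium with 0.1% polyvinyl alcohol (PVA), insulin-transferrin-selenium, antibiotics, thrombopoietin at 100 ng/ml and stem cell factor at 10 ng/ml. The populations were CD201+CD150+CD48-KSL cells (CD201+CD48- below), CD201+CD150+CD48+KSL cells (CD201+CD48+) and CD201-KSL cells (CD201-), where CD201 is the endothelial protein C receptor, CD150 and CD48 are receptors of the SLAM family, and CD201 with CD150 but without CD48 is a phenotype used to enrich HSCs. For CD201- libraries the title also puts CD150+CD48+ in the gate, but the treatment label and design text leave these out. Culture time is 10 days by the design text and a week by the growth protocol. No age or sex of the mice is given, and nothing says whether the replicates of a population came from separate cultures or animals, so p-values measure the spread between these libraries, which may be technical. In bulk libraries, fewer cells of a type and less RNA per cell cannot be told apart.

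Libraries held 3810123 to 7072885 counts over 13663 to 17845 genes with a count. The 32 genes had from 53 counts (Insig2, in its lowest library) to 11777 counts (Scd2, in its highest), and 27 of them had at least 100 counts in every library. Levels are CPM, counts per library scaled to the same total, with library sizes corrected by the trimmed mean of M values (TMM). CD201- replicate 3 stood apart: in it 584 genes lay over 2-fold from the mean of the other CD201- libraries, against 53 to 233 genes in the same measure for each other library. The 32 genes lay lower in it than in CD201- replicates 1 and 2 by a median log2 deviation of -0.13, -0.06 in the sterol branch and -0.22 in the fatty acid branch, and counts of calls are given with and without it.

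Promoter sequences are shown first for 7 genes whose expression is described below, because the SREBPs and their partner NF-Y are known to bind short motifs there. Of the 32 genes, 25 had 1 or more entries in the RefSeq promoter table (GRCm38.p6, the assembly of mm10), and Fdps, Fdft1, Sqle, Stard4, Scd1, Scd2 and Fads1 are named only. The 250 bases before each listed start were searched on both strands for the sterol regulatory element core TCACNCCAC, the CCAAT box, the GC box GGGCGG and the flanked E-box TCACGTGA, none of which shares letters with another at the matches shown. Capitals mark the sterol regulatory element core and CCAAT boxes, written ATTGG where the box is on the other strand. Hmgcs1 was the gene of the 2 branches that passed the test in some comparison and held the sterol regulatory element core, and the other 6 were added after their values were seen. Ebp, Cyp51 and Lss had the largest differences among the sterol genes with 1 entry, and Msmo1 the smallest in the first comparison. Acly and Elovl6 had the largest of the fatty acid genes with 1 entry.
Hmgcs1: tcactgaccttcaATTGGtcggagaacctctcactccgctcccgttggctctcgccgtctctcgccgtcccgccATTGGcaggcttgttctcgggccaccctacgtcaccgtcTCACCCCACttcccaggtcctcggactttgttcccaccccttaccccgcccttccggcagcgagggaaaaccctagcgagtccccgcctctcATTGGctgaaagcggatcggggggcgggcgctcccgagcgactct
Ebp: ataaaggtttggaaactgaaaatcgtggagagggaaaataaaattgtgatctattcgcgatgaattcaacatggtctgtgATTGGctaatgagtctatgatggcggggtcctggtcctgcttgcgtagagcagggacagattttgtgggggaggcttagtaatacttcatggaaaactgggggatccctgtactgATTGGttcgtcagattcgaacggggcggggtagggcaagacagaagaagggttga
Cyp51: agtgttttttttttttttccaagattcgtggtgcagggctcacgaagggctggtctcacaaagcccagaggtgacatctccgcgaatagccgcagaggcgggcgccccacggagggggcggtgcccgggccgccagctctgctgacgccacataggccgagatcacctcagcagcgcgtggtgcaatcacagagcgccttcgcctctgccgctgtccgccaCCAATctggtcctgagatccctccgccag
Lss: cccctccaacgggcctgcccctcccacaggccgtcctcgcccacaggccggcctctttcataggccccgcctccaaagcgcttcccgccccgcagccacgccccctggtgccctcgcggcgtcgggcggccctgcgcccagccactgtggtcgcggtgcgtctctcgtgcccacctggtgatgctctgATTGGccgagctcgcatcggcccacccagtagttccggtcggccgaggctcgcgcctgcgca
Acly: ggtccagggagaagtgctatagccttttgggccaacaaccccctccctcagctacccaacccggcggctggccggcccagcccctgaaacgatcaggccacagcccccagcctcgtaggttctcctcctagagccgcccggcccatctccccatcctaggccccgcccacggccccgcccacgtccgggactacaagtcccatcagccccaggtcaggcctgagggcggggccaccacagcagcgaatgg
Elovl6: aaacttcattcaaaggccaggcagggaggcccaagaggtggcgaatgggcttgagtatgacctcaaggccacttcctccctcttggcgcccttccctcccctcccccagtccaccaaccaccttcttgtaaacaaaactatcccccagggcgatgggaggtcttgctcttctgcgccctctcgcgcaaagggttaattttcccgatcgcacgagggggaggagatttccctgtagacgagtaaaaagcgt
Msmo1: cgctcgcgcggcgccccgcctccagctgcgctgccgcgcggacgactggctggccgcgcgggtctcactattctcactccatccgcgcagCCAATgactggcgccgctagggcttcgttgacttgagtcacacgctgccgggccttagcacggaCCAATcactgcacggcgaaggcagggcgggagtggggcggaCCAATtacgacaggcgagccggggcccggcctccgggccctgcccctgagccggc

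In GRCm38.p6 these stretches are chr13:119690101-119690350 (plus strand) for Hmgcs1, chrX:8193513-8193762 (minus strand) for Ebp, chr5:4104698-4104947 (minus strand) for Cyp51, chr10:76531355-76531604 (plus strand) for Lss, chr11:100528001-100528250 (minus strand) for Acly, chr3:129532136-129532385 (plus strand) for Elovl6 and chr8:64733579-64733828 (minus strand) for Msmo1. Each is written 5′ to 3′ in the direction of the gene. The Lss window ends inside the annotated span of the gene, since the listed start lies downstream of the first annotated base. Hmgcs1 and Msmo1 each hold 3 CCAAT boxes, Ebp holds 2, and Cyp51 and Lss hold 1. Acly and Elovl6 hold none, and their G and C content is 68.8% and 56.4%.

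The sterol regulatory element core was found in 1 of 15 sterol genes with an entry (6.67%), in Hmgcs1 as TCACCCCAC with its first base 137 bases before the start, and in 1.22% of tested genes with an entry. None of the 5 regulators and none of the 5 fatty acid genes with an entry held these letters. A CCAAT box was present in 14 of 15 sterol genes (93.3%), 4 of 5 regulators and 1 of 5 fatty acid genes, beside 41.1% of tested genes and 37.5% of all genes in the table. The GC box was found in 14 of 15 sterol genes and 2 of 5 fatty acid genes, beside 65.0% of tested genes. The flanked E-box was found in none of the 25 genes with an entry and in 1.82% of tested genes. A match describes these letters in this window and no more.

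CD201+CD48- cells, whose phenotype enriches for HSCs, were first compared with CD201- cells. Cholesterol and fatty acid synthesis genes were mostly lower in CD201+CD48- cells. In the sterol branch 11 of 19 genes were lower and 1 was higher, with a median log2 fold change of -0.42, and in the fatty acid branch 7 of 8 were lower and 0 were higher, with a median of -0.48. None of the 5 SREBP regulators passed (median -0.03, 0.14 when scaled by library size alone). The test was the quasi-likelihood F test of edgeR on raw counts, with Benjamini-Hochberg adjustment over all 11619 genes and a threshold of 0.05. In the same comparison 48.1% of all tested genes were called, 24.2% higher and 23.9% lower, and the median over all of them was 0.00, so 18 of 32 genes lower stand beside a background of 23.9%. Groups did not overlap for 22 of the 32 genes, 3 with CD201+CD48- libraries above and 19 below, beside 55.2% of all genes, 28.0% above and 27.2% below.

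CD201+CD48+ cells were compared with the same CD201- libraries next, as the second comparison. Here 9 of 19 sterol genes were lower and 0 higher (median -0.31), all 8 fatty acid genes were lower (median -0.42; 5 of 8 under library size alone or without CD201+CD48+ replicate 2), and 0 of 5 regulators passed with edgeR, with DESeq2 or at an unadjusted p under 0.05 (median -0.01, 0.12 when scaled by library size alone). Over all tested genes 29.1% were called, 14.8% higher and 14.3% lower, with a median of -0.00. Groups did not overlap for 20 of the 32 genes, all 20 with CD201+CD48+ libraries below, beside 41.7% of all genes, 21.4% above and 20.3% below. The first 2 comparisons share the CD201- libraries, so their values are given side by side for each gene below and are not independent. Of the 32 genes, 12 passed no comparison.

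**Figure D1:**
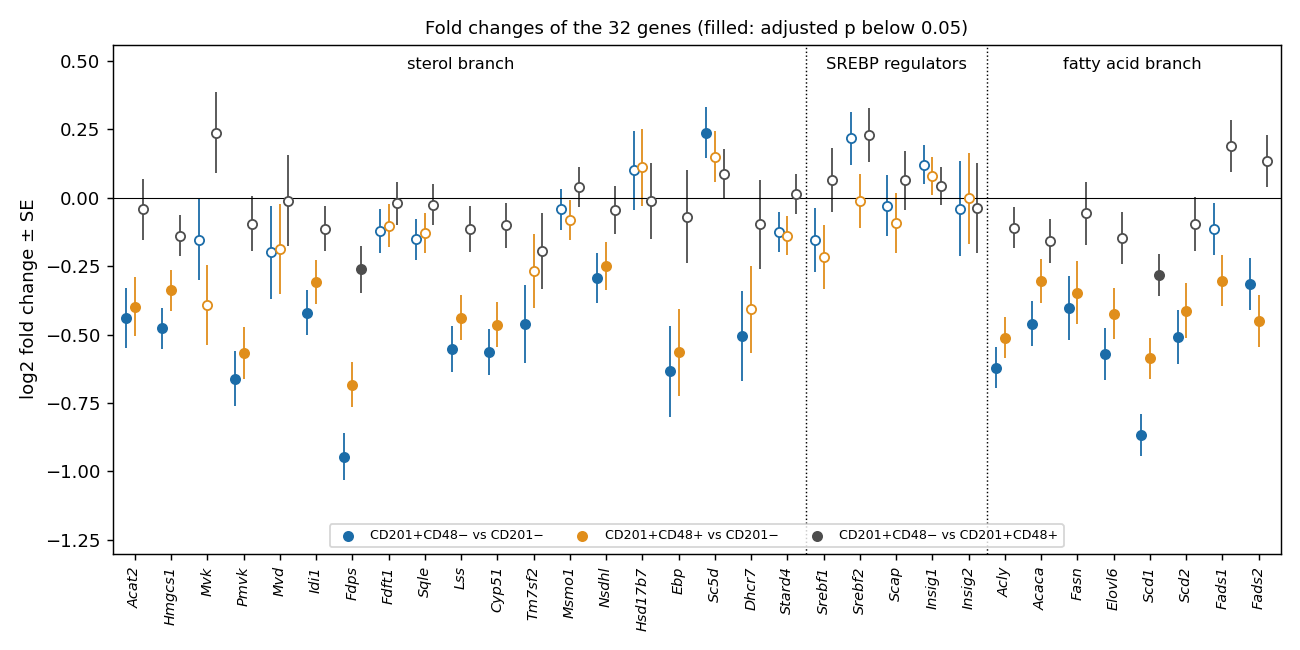
Log2 fold changes with standard errors (vertical axis) of the 32 genes (horizontal axis) in the 3 comparisons, from a fit of all 9 libraries. Filled points passed an adjusted p of 0.05. In both comparisons with CD201- cells most genes of the 2 branches lie below 0, with Fdps at -0.95 and Scd1 at -0.87 lowest in the first, while the 5 regulators lie between -0.22 and 0.22.

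With library sizes alone and no composition factor, the median log2 fold change of all genes moved to 0.17 in the first comparison and 0.13 in the second, and the split of all calls moved to 3974 higher and 1685 lower in the first, against 2807 and 2778 with TMM, and to 2701 and 851 in the second, against 1723 and 1661. In the first comparison 12 of 32 genes were then lower, against 18 with TMM, and 3 higher (Sc5d, Srebf2 and Insig1), beside 14.5% and 34.2% of all genes. The lower genes were 7 sterol and 5 fatty acid genes, against 11 and 7. In the second comparison 11 of 32 were lower (6 sterol and 5 fatty acid genes), against 17 with TMM, and Insig1 was higher, beside 7.32% and 23.2% of all genes. Under that scaling the medians were -0.25 and -0.18 for the sterol branch and -0.32 and -0.29 for the fatty acid branch in the first and second comparisons. Without CD201- replicate 3, 22 of 32 genes were lower and 0 higher in the first comparison (13 sterol, 8 fatty acid and 1 regulator), beside 26.2% and 25.7% of all genes, and 20 of 32 were lower and 0 higher in the second (10 sterol, 8 fatty acid and 2 regulators), beside 18.1% and 18.2%. That fit called more of all genes as well, so the larger member counts are not read as specific to them.

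The mevalonate and isoprenoid steps held 7 genes, and 5 of them were lower in each comparison with CD201- cells. Acat2 makes acetoacetyl-CoA in the cytosol. It averaged 55.4 ± 3.76 CPM (CD201+CD48-), 56.9 ± 3.42 CPM (CD201+CD48+) and 75 ± 11.9 CPM (CD201-) as mean ± SD of 3 replicates. Against CD201- cells the log2 fold change of Acat2 was -0.44 ± 0.11 in CD201+CD48- cells (adjusted p = 0.00397) and -0.40 ± 0.11 in CD201+CD48+ cells (adjusted p = 0.012). The second call was lost without CD201+CD48+ replicate 1, without CD201- replicate 2 and under library size alone, which also ended the first (adjusted p of 1.2e-05 to 0.113 over 17 alternatives for the second). Hmgcs1 makes HMG-CoA, the precursor of mevalonate, and is the gene whose promoter above holds the sterol regulatory element core. Its level was 314, 308 and 299 CPM in CD201+CD48- libraries, 327, 329.6 and 356 CPM in CD201+CD48+ libraries, and 421, 409 and 452 CPM in CD201- libraries. The 3 groups did not overlap, in the order CD201+CD48-, CD201+CD48+, CD201-. Both differences from CD201- cells passed, at -0.48 ± 0.08 on the log2 scale in the first comparison (adjusted p = 9.24e-05) and -0.34 ± 0.07 in the second (adjusted p = 0.00336). Between the CD201+ populations the log2 fold change of Hmgcs1 was -0.14 ± 0.07 and did not pass (adjusted p = 0.248).

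Pmvk, phosphomevalonate kinase, adds the second phosphate to mevalonate. Replicates of Pmvk measured 34.3, 37.1 and 33.9 CPM in CD201+CD48- libraries, 36.9, 38.9 and 36.4 CPM in CD201+CD48+ libraries, and 56.2, 50.3 and 59.6 CPM in CD201- libraries. Every CD201- library lay above every CD201+ library, while the CD201+ populations overlapped. Pmvk was lower in both CD201+ populations, with a log2 fold change of -0.66 ± 0.10 (SE; adjusted p = 6.09e-05) for CD201+CD48- cells and -0.57 ± 0.10 (adjusted p = 0.000456) for CD201+CD48+ cells. Idi1 interconverts the C5 isoprenoid pyrophosphates. For Idi1 the libraries gave 208, 204 and 205 CPM in CD201+CD48- libraries, 204, 242 and 222 CPM in CD201+CD48+ libraries, and 293, 281 and 253 CPM in CD201- libraries. All CD201- libraries were above all CD201+ libraries. Against CD201- cells the log2 fold change of Idi1 was -0.42 ± 0.08 in CD201+CD48- cells (adjusted p = 0.000588) and -0.31 ± 0.08 in CD201+CD48+ cells (adjusted p = 0.0104). The second Idi1 call was lost without CD201+CD48+ replicate 1 and under library size alone (adjusted p of 2.73e-06 to 0.139 over 17 alternatives).

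Fdps, farnesyl pyrophosphate synthase, supplies the precursor shared by sterols, dolichol, ubiquinone and protein prenylation, and had the largest difference of the 32 genes. Fdps read 103, 119 and 111 CPM in CD201+CD48- libraries, 143, 123 and 133 CPM in CD201+CD48+ libraries, and 204, 229.8 and 207 CPM in CD201- libraries. The 3 groups did not overlap, with CD201+CD48- cells lowest. Both differences passed, at -0.95 ± 0.08 on the log2 scale in the first comparison (adjusted p = 3.13e-07) and -0.68 ± 0.08 in the second (adjusted p = 2.06e-05). In the first comparison this is 48.1% less Fdps mRNA, and the call held in all 17 alternatives in both comparisons. Mvk and Mvd, the first kinase and the decarboxylase acting on mevalonate, passed no comparison. Mvk averaged 29 ± 2.66 CPM (CD201+CD48-), 24.4 ± 3.1 CPM (CD201+CD48+) and 32.2 ± 6.29 CPM (CD201-) as mean ± SD of 3 replicates, and Mvd averaged 16.2 ± 3.64 CPM (CD201+CD48-), 16.2 ± 1.09 CPM (CD201+CD48+) and 18.4 ± 1.91 CPM (CD201-) as mean ± SD of 3 replicates. Mvk passed as lower without CD201- replicate 3, in the first comparison (log2 fold change -0.30, adjusted p = 0.0421) and in the second (-0.53, adjusted p = 0.000536).

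**Figure D2:**
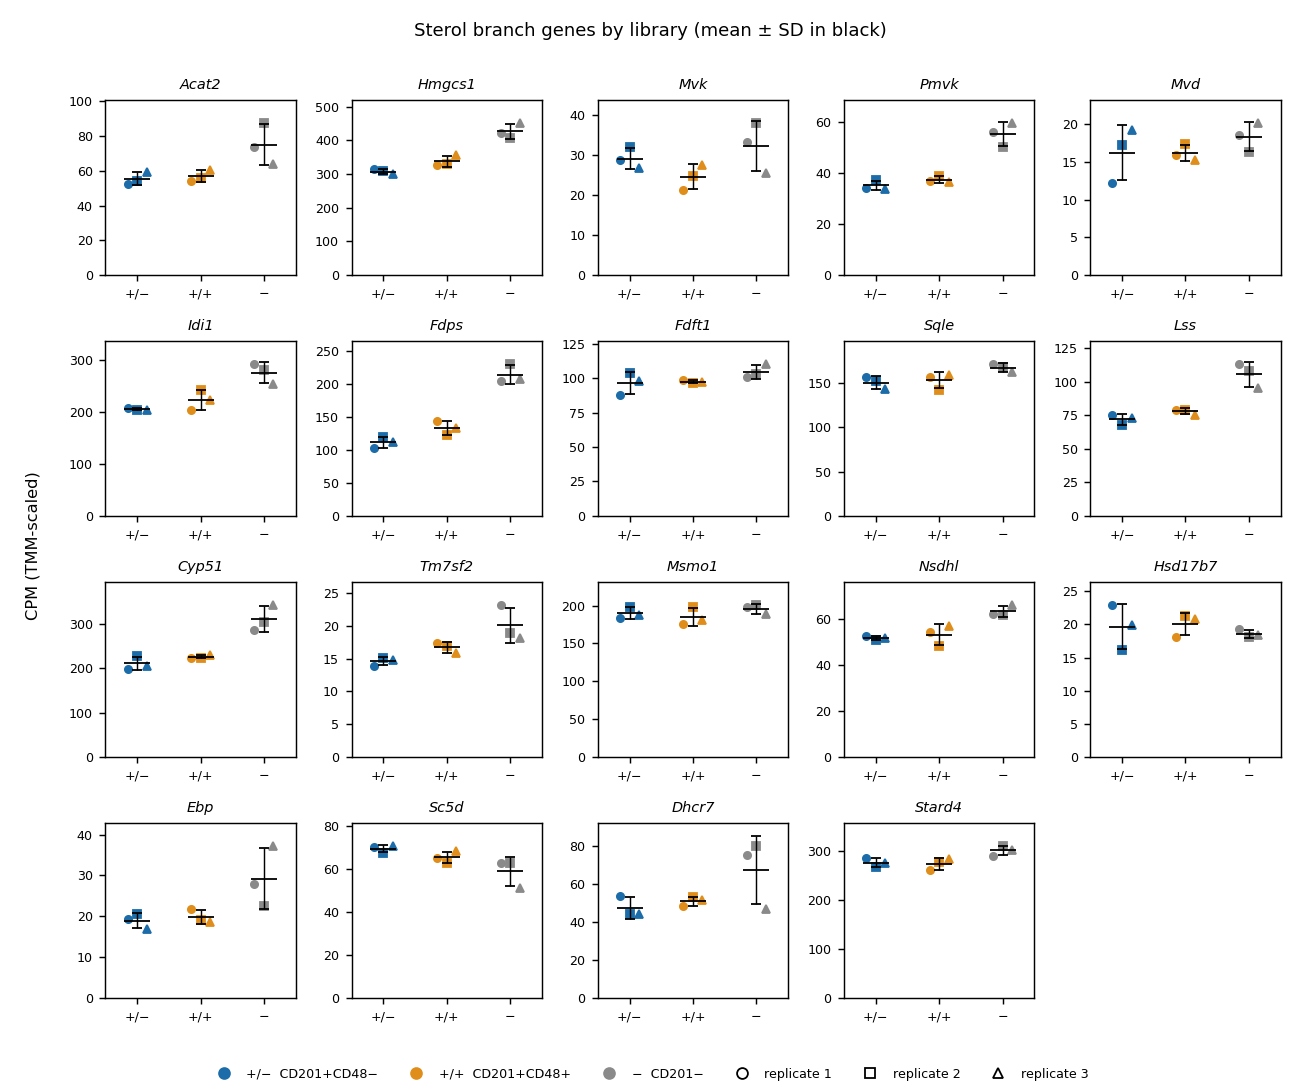
TMM-scaled CPM of the 19 sterol branch genes in each of the 9 libraries (vertical axes start at 0), with CD201+CD48- at the left of each panel, CD201+CD48+ in the middle and CD201- at the right, and mean ± SD of 3 replicates in black. Pmvk, Fdps, Lss and Cyp51 separate all CD201- libraries from all CD201+ libraries, whereas Msmo1, Hsd17b7 and Mvd overlap.

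The 3 steps around squalene split. Fdft1 and Sqle, squalene synthase and squalene epoxidase, passed neither comparison, whereas Lss, which closes the ring to lanosterol, passed both. Fdft1, whose span overlaps Ctsb in the annotation, averaged 96.4 ± 8.02 CPM (CD201+CD48-), 97.5 ± 0.92 CPM (CD201+CD48+) and 105 ± 5 CPM (CD201-) as mean ± SD of 3 replicates. Sqle, a rate-limiting step of the late pathway, read 157, 152 and 143 CPM in CD201+CD48- libraries, 157, 143 and 159 CPM in CD201+CD48+ libraries, and 172, 168 and 162 CPM in CD201- libraries. All CD201- libraries of Sqle were above all CD201+ libraries, but by little, with a log2 fold change of -0.15 ± 0.07 (adjusted p = 0.103) in the first comparison and a log2 fold change of -0.13 ± 0.07 (adjusted p = 0.206) in the second. The first passed without CD201- replicate 3 (-0.17, adjusted p = 0.0284). Lss read 75.2, 67.5 and 72.6 CPM in CD201+CD48- libraries, 78.9, 79.2 and 75.4 CPM in CD201+CD48+ libraries, and 113, 108 and 95.3 CPM in CD201- libraries. The CD201- libraries were again above all others, and the CD201+ populations did not overlap either, with CD201+CD48- lower. That last gap was small (75.2 against 75.4 CPM), and the difference did not pass (log2 fold change -0.11 ± 0.09, adjusted p = 0.422). Lss was lower in both CD201+ populations, with a log2 fold change of -0.55 ± 0.08 (SE; adjusted p = 7.54e-05) for CD201+CD48- cells and -0.44 ± 0.08 (adjusted p = 0.00112) for CD201+CD48+ cells.

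From lanosterol to cholesterol there were 8 genes. In the first comparison 5 were lower and 1 higher, and in the second 3 were lower and 0 higher. Cyp51 removes the first methyl group of lanosterol. Its level was 199, 228 and 205 CPM in CD201+CD48- libraries, 224, 224 and 229.7 CPM in CD201+CD48+ libraries, and 287, 305 and 343 CPM in CD201- libraries. The CD201- libraries lay above all CD201+ libraries. Against CD201- cells the log2 fold change of Cyp51 was -0.56 ± 0.08 in CD201+CD48- cells (adjusted p = 5e-05) and -0.46 ± 0.08 in CD201+CD48+ cells (adjusted p = 0.00068). Ebp is the sterol isomerase known as the emopamil-binding protein. Replicates of Ebp measured 19.2, 20.5 and 16.8 CPM in CD201+CD48- libraries, 21.7, 19.1 and 18.6 CPM in CD201+CD48+ libraries, and 27.9, 22.6 and 37.3 CPM in CD201- libraries. The CD201- values were widely spread but did not overlap those of the CD201+ cells. Both differences passed, at -0.63 ± 0.17 on the log2 scale in the first comparison (adjusted p = 0.00546) and -0.56 ± 0.16 in the second (adjusted p = 0.0154). The second Ebp call was lost without CD201+CD48+ replicate 2 and without CD201+CD48+ replicate 3 (adjusted p of 0.00104 to 0.071 over 17 alternatives), and the first log2 fold change was -0.42 without CD201- replicate 3, its size nearest 0 among the alternatives.

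Nsdhl, which takes part in removing the C4 methyl groups, averaged 51.8 ± 0.7 CPM (CD201+CD48-), 53.3 ± 4.45 CPM (CD201+CD48+) and 63.4 ± 2.37 CPM (CD201-) as mean ± SD of 3 replicates. Nsdhl was lower in both CD201+ populations, with a log2 fold change of -0.29 ± 0.09 (SE; adjusted p = 0.0139) for CD201+CD48- cells and -0.25 ± 0.09 (adjusted p = 0.0442) for CD201+CD48+ cells. Of 17 alternatives, 14 ended the second call, among them the omission of any 1 library other than CD201+CD48+ replicate 3 (adjusted p of 0.0368 to 0.367). Library size alone also ended the first Nsdhl call (log2 fold change -0.12, adjusted p = 0.296). Tm7sf2, a sterol reductase, averaged 14.6 ± 0.627 CPM (CD201+CD48-), 16.8 ± 0.836 CPM (CD201+CD48+) and 20.1 ± 2.73 CPM (CD201-) as mean ± SD of 3 replicates. It was lower in the first comparison (log2 fold change -0.46 ± 0.14, adjusted p = 0.0138), a call lost without CD201+CD48- replicate 1, without CD201- replicate 1 and under library size alone, and had a log2 fold change of -0.27 ± 0.13 (adjusted p = 0.148) in the second. Tm7sf2 overlaps Vps51 in the annotation, so its counts are less certain where strand was not used.

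Dhcr7 reduces 7-dehydrocholesterol to cholesterol. For Dhcr7 the libraries gave 53.7, 44 and 43.8 CPM in CD201+CD48- libraries, 48, 52.7 and 51.4 CPM in CD201+CD48+ libraries, and 75.3, 79.8 and 46.7 CPM in CD201- libraries. CD201- replicate 3 lay among the CD201+ libraries, and the groups overlapped. Dhcr7 was lower in the first comparison (log2 fold change -0.50 ± 0.16, adjusted p = 0.0209), a call lost without CD201+CD48- replicate 2 or 3, without CD201- replicate 1 or 2, and under library size alone. In the second it had a log2 fold change of -0.41 ± 0.16 (adjusted p = 0.0701). It passed both without CD201- replicate 3, with -0.71 (adjusted p = 8.08e-09) and -0.61 (adjusted p = 2.75e-07).

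Sc5d, the lathosterol oxidase that forms 7-dehydrocholesterol, went the other way. Sc5d read 70.1, 67.5 and 70.6 CPM in CD201+CD48- libraries, 64.9, 62.7 and 68.1 CPM in CD201+CD48+ libraries, and 62.9, 62.6 and 51.1 CPM in CD201- libraries. CD201+CD48- libraries were above all CD201- libraries. It was the 1 higher gene of the first comparison (log2 fold change 0.24 ± 0.09, adjusted p = 0.0468), and 11 of 17 alternatives ended this call, including without any 1 CD201+ library and without CD201- replicate 3 (0.15, adjusted p = 0.171; adjusted p over all alternatives from 0.00652 to 0.171). Msmo1 and Hsd17b7, which also act on the C4 methyl groups, passed no comparison: Msmo1 averaged 190.2 ± 7.63 CPM (CD201+CD48-), 185 ± 12.2 CPM (CD201+CD48+) and 196 ± 6.47 CPM (CD201-) as mean ± SD of 3 replicates, and Hsd17b7 averaged 19.7 ± 3.4 CPM (CD201+CD48-), 20.1 ± 1.73 CPM (CD201+CD48+) and 18.6 ± 0.609 CPM (CD201-) as mean ± SD of 3 replicates. Stard4 carries cholesterol between membranes and is a known SREBP target. It averaged 276 ± 9.02 CPM (CD201+CD48-), 273 ± 11.9 CPM (CD201+CD48+) and 301 ± 10.1 CPM (CD201-) as mean ± SD of 3 replicates, with a log2 fold change of -0.12 ± 0.07 (adjusted p = 0.17) in the first comparison and a log2 fold change of -0.14 ± 0.07 (adjusted p = 0.16) in the second.

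The SREBP regulators did not pass a comparison. Srebf2 encodes the SREBP most tied to sterol genes. Its level was 436, 415 and 448 CPM in CD201+CD48- libraries, 405, 347 and 356 CPM in CD201+CD48+ libraries, and 407, 395 and 316 CPM in CD201- libraries. Every CD201+CD48- library was above every CD201- library, but the difference did not pass the test: a log2 fold change of 0.22 ± 0.10 (adjusted p = 0.0801). It passed as higher without CD201- replicate 1 and under library size alone (adjusted p of 0.01 to 0.212 over 17 alternatives). It passed as higher between the CD201+ populations without CD201- replicate 3 and in a fit of those 6 libraries (adjusted p of 0.000528 to 0.376), though with all libraries it had a log2 fold change of 0.23 ± 0.10 (adjusted p = 0.135). Srebf1 encodes the SREBPs most tied to fatty acid genes. Replicates of Srebf1 measured 207, 203 and 198 CPM in CD201+CD48- libraries, 211, 184 and 186 CPM in CD201+CD48+ libraries, and 252, 251 and 173 CPM in CD201- libraries. The low CD201- value was that of replicate 3, below every CD201+ library. With all libraries Srebf1 had a log2 fold change of -0.15 ± 0.12 (adjusted p = 0.305) in the first comparison and a log2 fold change of -0.22 ± 0.12 (adjusted p = 0.181) in the second, and without CD201- replicate 3 it was lower in both, at -0.31 (adjusted p = 3.1e-05) and -0.37 (adjusted p = 2e-06). Whether Srebf1 differs therefore rests on that library. Its annotated span also overlaps Rai1.

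Scap averaged 77.3 ± 3.02 CPM (CD201+CD48-), 74 ± 4.15 CPM (CD201+CD48+) and 78.8 ± 13.8 CPM (CD201-) as mean ± SD of 3 replicates. It had a log2 fold change of -0.03 ± 0.11 (adjusted p = 0.857) and a log2 fold change of -0.09 ± 0.11 (adjusted p = 0.56) in the first and second comparisons, and without CD201- replicate 3 it was lower in the second (-0.23, adjusted p = 0.0226). Insig1, itself a known SREBP target, read 136, 136 and 144 CPM in CD201+CD48- libraries, 141, 128 and 135 CPM in CD201+CD48+ libraries, and 125, 131 and 126 CPM in CD201- libraries. All CD201+CD48- libraries of Insig1 were above all CD201- libraries, without passing (log2 fold change 0.12 ± 0.07, adjusted p = 0.173). Under library size alone it passed as higher in both comparisons (adjusted p = 0.0048 and 0.0409). Insig2 averaged 12.8 ± 1.17 CPM (CD201+CD48-), 13 ± 1.95 CPM (CD201+CD48+) and 13.1 ± 1.76 CPM (CD201-) as mean ± SD of 3 replicates.

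All genes of the step from citrate to palmitate were lower in both CD201+ populations. Acly, ATP citrate lyase, releases cytosolic acetyl-CoA from citrate and so feeds both branches. For Acly the libraries gave 369, 336 and 345 CPM in CD201+CD48- libraries, 396, 364 and 374 CPM in CD201+CD48+ libraries, and 539, 557 and 520.3 CPM in CD201- libraries. The CD201- libraries stood clear of all 6 CD201+ libraries. Against CD201- cells the log2 fold change of Acly was -0.62 ± 0.08 in CD201+CD48- cells (adjusted p = 8.48e-06) and -0.51 ± 0.08 in CD201+CD48+ cells (adjusted p = 0.000135). Acaca, acetyl-CoA carboxylase 1, makes malonyl-CoA. Acaca read 309.8, 269 and 281 CPM in CD201+CD48- libraries, 334, 301 and 323 CPM in CD201+CD48+ libraries, and 414, 398 and 371 CPM in CD201- libraries. Again no CD201+ library reached the CD201- range. Both differences passed, at -0.46 ± 0.08 on the log2 scale in the first comparison (adjusted p = 0.000253) and -0.30 ± 0.08 in the second (adjusted p = 0.0109). The second Acaca call was lost without CD201+CD48+ replicate 2 and under library size alone, and its span overlaps Tada2a in the annotation.

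Fasn, fatty acid synthase, joins malonyl units into palmitate. Its level was 526, 519 and 538 CPM in CD201+CD48- libraries, 602, 513 and 531 CPM in CD201+CD48+ libraries, and 759.8, 786 and 548 CPM in CD201- libraries. CD201- replicate 3 lay close to the CD201+ libraries, below CD201+CD48+ replicate 1, so the second comparison overlaps. Fasn was lower in both CD201+ populations, with a log2 fold change of -0.40 ± 0.12 (SE; adjusted p = 0.00981) for CD201+CD48- cells and -0.35 ± 0.12 (adjusted p = 0.0357) for CD201+CD48+ cells. The second call failed in 9 of 17 alternatives (range of adjusted p 1.26e-10 to 0.231), among them the omission of any 1 CD201+CD48- library, of CD201+CD48+ replicate 2 or 3, or of CD201- replicate 1 or 2. Library size alone ended the first (adjusted p = 0.155). Both passed without CD201- replicate 3, with -0.55 and -0.49.

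**Figure D3:**
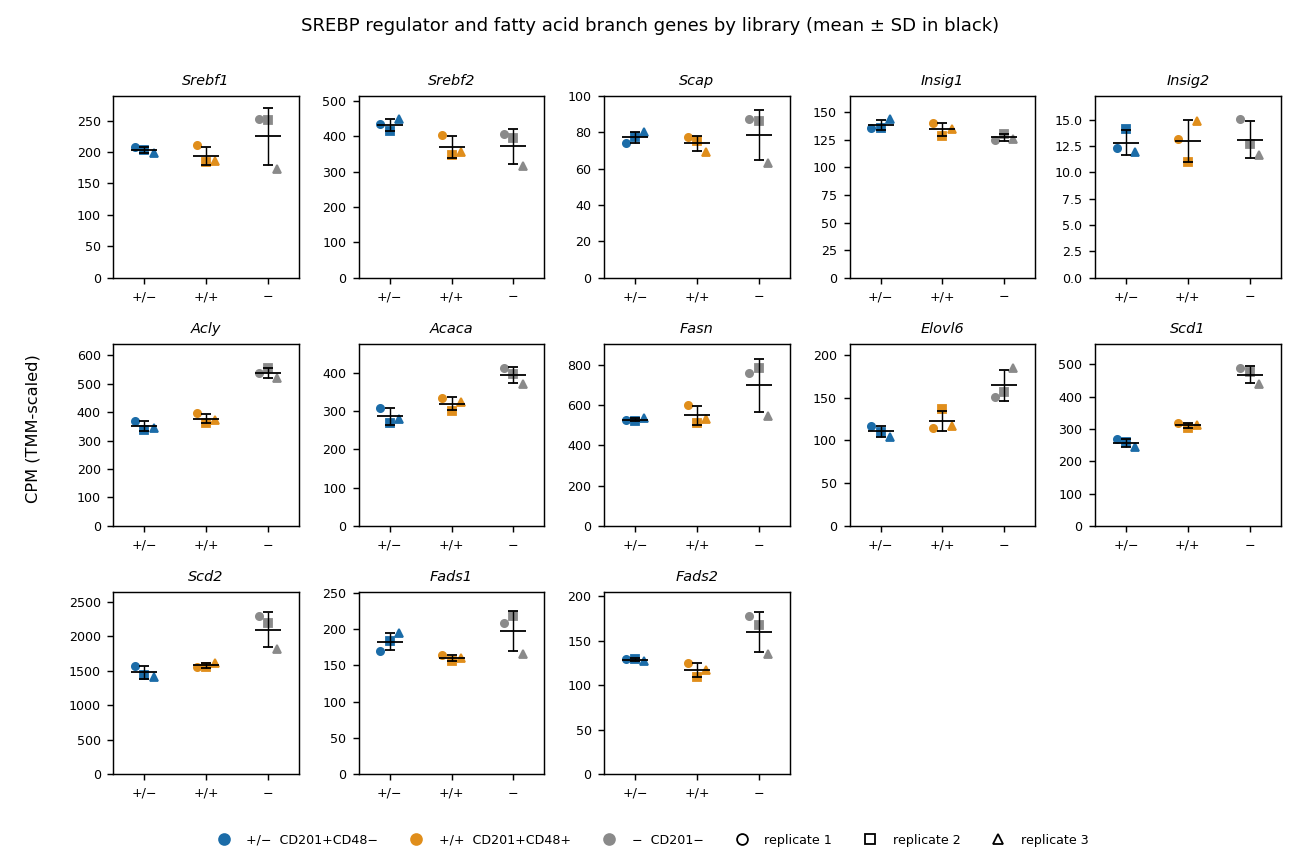
TMM-scaled CPM of the 5 SREBP regulators and the 8 fatty acid branch genes in each of the 9 libraries (vertical axes start at 0), with CD201+CD48- at the left, CD201+CD48+ in the middle and CD201- at the right of each panel, and mean ± SD of 3 replicates in black. The regulators overlap between groups more than Acly, Scd1 and Elovl6 do, and CD201- replicate 3 (triangle) is the lowest CD201- library for Srebf1, Fasn, Scd2 and Fads1.

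Elongation and desaturation held 5 genes, of which 4 were lower in CD201+CD48- cells and all 5 in CD201+CD48+ cells. Elovl6 extends palmitate to stearate. Replicates of Elovl6 measured 117, 110.4 and 104 CPM in CD201+CD48- libraries, 115, 137 and 117 CPM in CD201+CD48+ libraries, and 151, 157 and 185 CPM in CD201- libraries. The CD201- libraries were above all CD201+ libraries, and here replicate 3 was the highest of them. Against CD201- cells the log2 fold change of Elovl6 was -0.57 ± 0.09 in CD201+CD48- cells (adjusted p = 0.000144) and -0.42 ± 0.09 in CD201+CD48+ cells (adjusted p = 0.00323). Scd1, the stearoyl-CoA desaturase that forms oleate, had the second largest difference of the 32 genes. For Scd1 the libraries gave 268, 259 and 243 CPM in CD201+CD48- libraries, 319, 304 and 312 CPM in CD201+CD48+ libraries, and 489, 476 and 439 CPM in CD201- libraries. The 3 groups were fully separated, CD201+CD48- lowest and CD201- highest. Both differences passed, at -0.87 ± 0.08 on the log2 scale in the first comparison (adjusted p = 2.7e-07) and -0.59 ± 0.08 in the second (adjusted p = 3.76e-05). Both calls held in all 17 alternatives.

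Scd2, a further stearoyl-CoA desaturase, was the most abundant of the 32 genes per length of transcript. Scd2 read 1576, 1445 and 1409 CPM in CD201+CD48- libraries, 1558, 1558 and 1619.7 CPM in CD201+CD48+ libraries, and 2296, 2192 and 1812 CPM in CD201- libraries. The CD201- libraries stood above all others, replicate 3 least so. Scd2 was lower in both CD201+ populations, with a log2 fold change of -0.51 ± 0.10 (SE; adjusted p = 0.000583) for CD201+CD48- cells and -0.41 ± 0.10 (adjusted p = 0.00583) for CD201+CD48+ cells. The related genes Scd3 and Scd4 had 28 and 30 counts over all libraries, against 15804 for Scd1.

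Fads1 and Fads2 introduce double bonds into polyunsaturated fatty acids. Its level was 171, 183 and 194 CPM in CD201+CD48- libraries, 165, 156 and 160.1 CPM in CD201+CD48+ libraries, and 208, 218 and 166 CPM in CD201- libraries. Unlike most of the 32 genes, Fads1 was lowest in CD201+CD48+ cells, whose libraries lay below all others. It was lower in the second comparison (log2 fold change -0.30 ± 0.09, adjusted p = 0.0247) and had a log2 fold change of -0.11 ± 0.09 (adjusted p = 0.342) in the first. The second call was lost without any 1 CD201+CD48+ library, without CD201- replicate 1 or 2, in a fit of 6 libraries and under library size alone, and without CD201- replicate 3 the first passed as well (-0.23, adjusted p = 0.00256). Replicates of Fads2 measured 129, 129.6 and 127 CPM in CD201+CD48- libraries, 124, 109 and 117 CPM in CD201+CD48+ libraries, and 178, 168 and 134 CPM in CD201- libraries. Here too the lowest libraries were CD201+CD48+, and all CD201+ libraries lay below the CD201- libraries. Against CD201- cells the log2 fold change of Fads2 was -0.32 ± 0.09 in CD201+CD48- cells (adjusted p = 0.0122) and -0.45 ± 0.09 in CD201+CD48+ cells (adjusted p = 0.00231). The first Fads2 call was lost without CD201- replicate 1 and under library size alone.

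Levels can be compared between genes only per length, here as CPM per kb of the Ensembl canonical transcript. Scd2 led in every population, with means of 271 in CD201+CD48-, 289 in CD201+CD48+ and 385 CPM per kb in CD201- cells, and Fdps followed in CD201- cells with 164 CPM per kb, against 85.2 in CD201+CD48- and 102 CPM per kb in CD201+CD48+ cells. Hsd17b7 was lowest throughout, at 4.26, 4.35 and 4.03 CPM per kb in the same order of populations. In CD201+CD48- cells the means of Srebf2 and Fdps, 85.3 ± 3.34 and 85.2 ± 6.12 CPM per kb (SD, n = 3), did not differ beyond their spread, whereas in CD201- cells Fdps exceeded Srebf2 (73.3 ± 9.75 CPM per kb).

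The third comparison set the CD201+ populations against each other. Between CD201+CD48- and CD201+CD48+ cells, 2 of 32 genes passed, Fdps (log2 fold change -0.26 ± 0.08, adjusted p = 0.0485) and Scd1 (log2 fold change -0.28 ± 0.08, adjusted p = 0.02), both lower in CD201+CD48- cells. Of all tested genes 15.4% were called, 9.05% higher and 6.31% lower. The 2 of 32 genes lower are 6.25%, near the 6.31% of all genes lower, and 0 of 32 were higher. Groups did not overlap for 8 genes, 3 above and 5 below, beside 40.7% of all genes, 21.0% above and 19.7% below. Of the alternatives, 11 of 17 ended the Fdps call, including without any 1 CD201+CD48- library and without CD201+CD48+ replicate 1 or 3 (adjusted p of 0.00124 to 0.221). The Scd1 call failed in 5, including without CD201+CD48- replicate 2 or 3 and without CD201+CD48+ replicate 1 or 3 (adjusted p of 1.45e-05 to 0.118). Medians were -0.04 in the sterol branch, -0.10 in the fatty acid branch and 0.06 over the regulators, beside -0.01 over all tested genes.

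Without CD201- replicate 3, which enters the shared estimate of spread though not the comparison, 4 genes were lower and 2 higher in the third comparison, and all calls over the 11619 genes moved to 1787 higher and 1687 lower, against 1052 and 733. By means alone, 20 of 32 genes had the order CD201+CD48- below CD201+CD48+ below CD201-, 13 of 19 in the sterol branch and 6 of 8 in the fatty acid branch, and Fads1 and Fads2 were the fatty acid genes whose lowest mean was in CD201+CD48+ cells. The step between the CD201+ populations did not pass for most of these genes, and a p above the threshold does not show that they were equal.

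Over whole libraries, the summed level of the sterol branch was 1954 to 2003 CPM in CD201+CD48-, 2020.2 to 2109 CPM in CD201+CD48+ and 2520.5 to 2569.9 CPM in CD201- libraries. With TMM scaling the sums did not overlap between any of the 3 populations. The gap between the CD201+ populations was small, from 2003 to 2020.2 CPM, and rests on the TMM factors. Between these populations 1 of 19 sterol genes passed, with a median log2 fold change of -0.04. For the fatty acid branch the sums were 3240.1 to 3466 CPM in CD201+CD48-, 3441 to 3613 CPM in CD201+CD48+ and 4176 to 5035 CPM in CD201- libraries, and here the CD201+ populations overlapped each other. Regulators summed to 844 to 882 CPM, 745 to 847 CPM and 689 to 886 CPM in the same populations and overlapped.

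**Figure D4:**
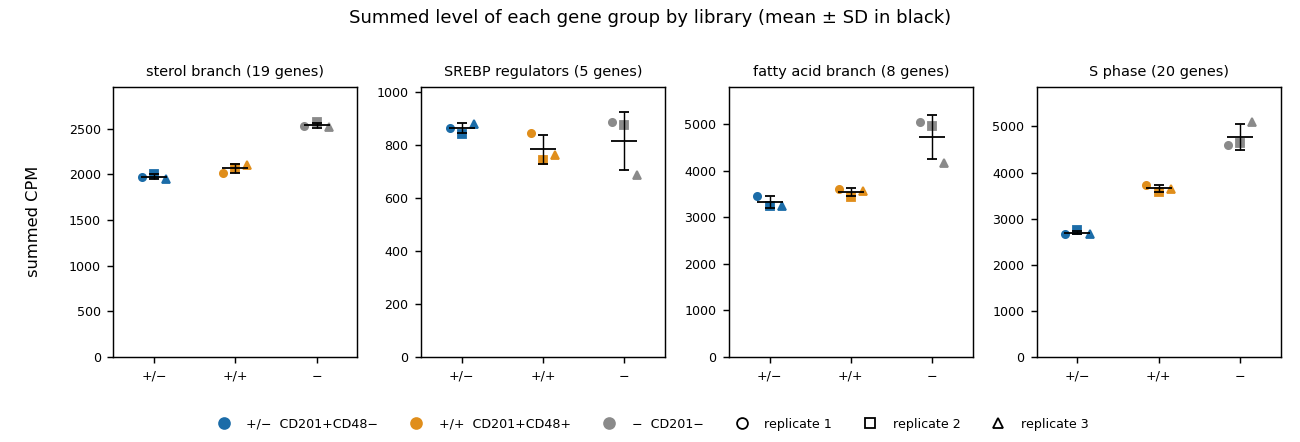
Summed TMM-scaled CPM (vertical axes, from 0) of the sterol branch, the SREBP regulators, the fatty acid branch and 20 S phase genes in each of the 9 libraries, with CD201+CD48- at the left, CD201+CD48+ in the middle and CD201- at the right of each panel, and mean ± SD of 3 replicates in black. Both branches and the S phase genes are highest in CD201- libraries, and CD201- replicate 3 (triangle) is low for the fatty acid branch and high for S phase.

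Other gene groups moved with the same populations. S phase genes, a list of 20, summed to 2674 to 2745 CPM in CD201+CD48-, 3587 to 3740.5 CPM in CD201+CD48+ and 4588 to 5087 CPM in CD201- libraries. Of the 20, 20 were lower in the first comparison (median -0.81), 17 in the second (median -0.35) and 18 in the third (median -0.47). The shares of all tested genes called lower were 23.9%, 14.3% and 6.31% in the same comparisons. HSC markers went the opposite way, with sums of 1768 to 1791, 1102 to 1111 and 393 to 424 CPM in the same order. In each comparison 7 of 7 tested were higher, beside 24.2%, 14.8% and 9.05% of all tested genes. Procr, which encodes CD201, is among the 7. The cells were sorted on CD201, so the Procr difference from CD201- cells follows from the gate and is no separate result. Megakaryocyte and platelet markers summed to 1575 to 1646 CPM, 456 to 491 CPM and 655 to 813 CPM. Of 9 tested, 7 were higher and 1 lower in the first comparison, beside 24.2% and 23.9% of all tested genes. In the second 1 was higher and 4 were lower, beside 14.8% and 14.3%. The members against the trend were Itga2b, lower in the first (log2 fold change -0.26, adjusted p = 0.0119), and Vwf, higher in the second (0.93, adjusted p = 8.26e-06).

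Mast cell and basophil markers summed to 5.09 to 9.6 CPM in CD201+CD48-, 3.44 to 4.72 CPM in CD201+CD48+ and 35.9 to 44.3 CPM in CD201- libraries. The 2 tested ones, of 8 in the list, were Cpa3 and Gzmb. Both were lower in the first 2 comparisons, beside 23.9% and 14.3% of all tested genes. Gzmb made up most of the CD201- sums, at 27.1 to 35.2 CPM. Fcer1a and Hdc, at most 0.883 CPM in any library, were highest in CD201+CD48- libraries. Mcpt8, at most 1.72 CPM, was highest in a CD201- library, and Tpsb2 and Cma1 were at 0 throughout. Granulocyte progenitor markers summed to 12.9 to 18.6, 16.2 to 19.5 and 20.4 to 36.4 CPM. Most of the CD201+ sums was Prtn3. It overlapped between populations, at 12.1 to 17.9, 14.9 to 16.6 and 9.42 to 20.7 CPM. Mpo and Ctsg were higher in CD201- libraries, Mpo at 0, 0.825 to 1.7 and 8.11 to 11.6 CPM. Neutrophil and macrophage markers summed to 23.3 to 25.2, 12.3 to 16.7 and 10.6 to 13.6 CPM (S100a9 at 0). Most of each sum was Ltf and Cd68. Ltf measured 5.56 to 9.74, 4.26 to 6.43 and 0.219 to 1.55 CPM. Camp and Ngp were highest in CD201- replicate 3, at 1.53 and 1.31 CPM. Erythroid markers summed to 58.9 to 66.6, 71.2 to 73.6 and 94.3 to 117 CPM (Hba-a1 at 0), and most of each sum was Hemgn, at 45.8 to 52.6, 67.1 to 69.7 and 89.9 to 109.8 CPM. The 3 tested erythroid genes did not move together: in the first comparison Hemgn was lower (-0.99, adjusted p = 5.21e-07), Epor was higher (1.75, adjusted p = 0.000985) and Gata1 did not pass (0.75, adjusted p = 0.0999), and in the second Hemgn (-0.54, adjusted p = 0.00036) and Gata1 (-3.09, adjusted p = 0.00106) were lower and Epor did not pass (0.84, adjusted p = 0.121). Adipocyte and stromal markers, of cells rich in lipid synthesis, summed to at most 2.22 CPM in any library, with Adipoq and Fabp4 at 0. Apart from the last list, these sums differ between the populations compared, several mostly through a few genes, and their part in the lower synthesis genes was not tested.

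The genes around the 2 branches were counted from lists chosen by function. Of 13 further sterol and isoprenoid enzymes, 0 were higher and 5 lower in the first comparison, 1 was lower in the second and 2 in the third. Pdss1, of ubiquinone synthesis, averaged 18 ± 2.41 CPM (CD201+CD48-) and 32.1 ± 2.8 CPM (CD201-), and was lower in the first comparison (log2 fold change -0.83 ± 0.13, adjusted p = 7.37e-05). Of all tested genes, 24.2% were higher and 23.9% lower in the first comparison and 14.8% higher and 14.3% lower in the second. In the third, 9.05% were higher and 6.31% lower. These shares are to be set beside the counts of this and the next lists. Leaving out 1 library at a time gave 0 to 2 lower genes of this list in the third comparison. The list's median was -0.03 in the first and in the second comparison and changed sign under library size alone.

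Of 15 tested genes of sterol uptake, storage and efflux (16 in the list), 4 were higher (26.7%) and 2 lower (13.3%) in each comparison with CD201- cells. In the first comparison the share called was below that of all genes, and no shift of the list is read from it. Abca1, the cholesterol exporter, averaged 73.3 ± 8.16 CPM (CD201+CD48-), 49.9 ± 1.41 CPM (CD201+CD48+) and 27.9 ± 1.06 CPM (CD201-). It was higher in the first comparison (log2 fold change 1.40 ± 0.10, adjusted p = 4.02e-08), the second (0.84 ± 0.10, adjusted p = 2.76e-05) and the third (0.56 ± 0.09, adjusted p = 0.000791). Soat2, which esterifies cholesterol for storage, averaged 7 ± 1.1 CPM, 8.01 ± 1.32 CPM and 17.9 ± 4.88 CPM in the same populations and was lower in the first comparison (-1.35 ± 0.23, adjusted p = 0.000168) and the second (-1.16 ± 0.21, adjusted p = 0.000931). Soat1, which has the same activity and was added after its values were seen, was higher in both (0.29, adjusted p = 0.0122, and 0.33, adjusted p = 0.00885), at 96 ± 3.54, 98.9 ± 2.08 and 78.7 ± 8.62 CPM. Without CD201- replicate 3 the counts of the list were 5 higher and 3 lower in the first comparison and 2 higher and 4 lower in the second. The SREBP processing and sterol-regulated degradation list of 9 had 1 higher gene in each, Rnf145, a ubiquitin ligase of the endoplasmic reticulum known to be induced by liver X receptors, at 88.2 ± 8.3 CPM (CD201+CD48-), 80.5 ± 6 CPM (CD201+CD48+) and 55.9 ± 7.57 CPM (CD201-), with log2 fold changes of 0.66 ± 0.11 (adjusted p = 0.000127) and 0.53 ± 0.11 (adjusted p = 0.00186). Aup1 was lower in the first (-0.30 ± 0.09, adjusted p = 0.00881), a call that 2 of 17 alternatives ended.

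Of 21 tested genes in a list of 22 for other fatty acid synthesis and elongation, 9 were lower (42.9%) and 2 higher (9.52%) in the first comparison, and 7 were lower (33.3%) and 1 higher (4.76%) in the second. Acsl3, an acyl-CoA synthetase of lipid droplets, averaged 119 ± 1.99 CPM (CD201+CD48-), 151 ± 8.48 CPM (CD201+CD48+) and 193 ± 28.3 CPM (CD201-) (first comparison -0.70 ± 0.09, adjusted p = 2.17e-05). Fads3, a desaturase beside Fads1 and Fads2 in the genome, went the other way from them, at 38.7 ± 3.69 CPM, 20.3 ± 1.63 CPM and 14.4 ± 2.45 CPM in the same populations. It was higher in the first comparison (1.43 ± 0.14, adjusted p = 9e-07), the second (0.49 ± 0.15, adjusted p = 0.0216) and the third (0.94 ± 0.13, adjusted p = 0.000132). Without CD201- replicate 3 no gene of the list was higher in the second comparison, and 9 were lower. Over the 17 alternatives the lower genes of the list ran from 4 to 12 in the first comparison and from 2 to 9 in the second. The lower genes among all tested genes ran from 1685 to 3042 and from 851 to 2099.

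Of 19 tested fatty acid oxidation genes (20 in the list), 1 was higher (5.26%) and 5 lower (26.3%) in the first comparison, and 1 was higher and 2 lower (10.5%) in the second. The lower shares are near or below those of all genes, and the higher shares are below them. The higher gene in both was Ppard, a nuclear receptor that induces fatty acid oxidation, at 28.2 ± 2.64 CPM (CD201+CD48-), 17.1 ± 0.911 CPM (CD201+CD48+) and 11.1 ± 0.481 CPM (CD201-), with log2 fold changes of 1.34 ± 0.13 (adjusted p = 1.11e-06) and 0.62 ± 0.14 (adjusted p = 0.00377). Etfb, a subunit of the electron transfer flavoprotein, averaged 67.1 ± 5.55 CPM, 77.2 ± 2.14 CPM and 117 ± 18.8 CPM in the same populations and was lower in the first comparison (-0.81 ± 0.11, adjusted p = 1.81e-05) and the second (-0.60 ± 0.10, adjusted p = 0.000535). The list's medians, -0.10 and -0.02, changed sign under library size alone, and without CD201- replicate 3 the second comparison had 2 higher and 4 lower.

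**Figure D5:**
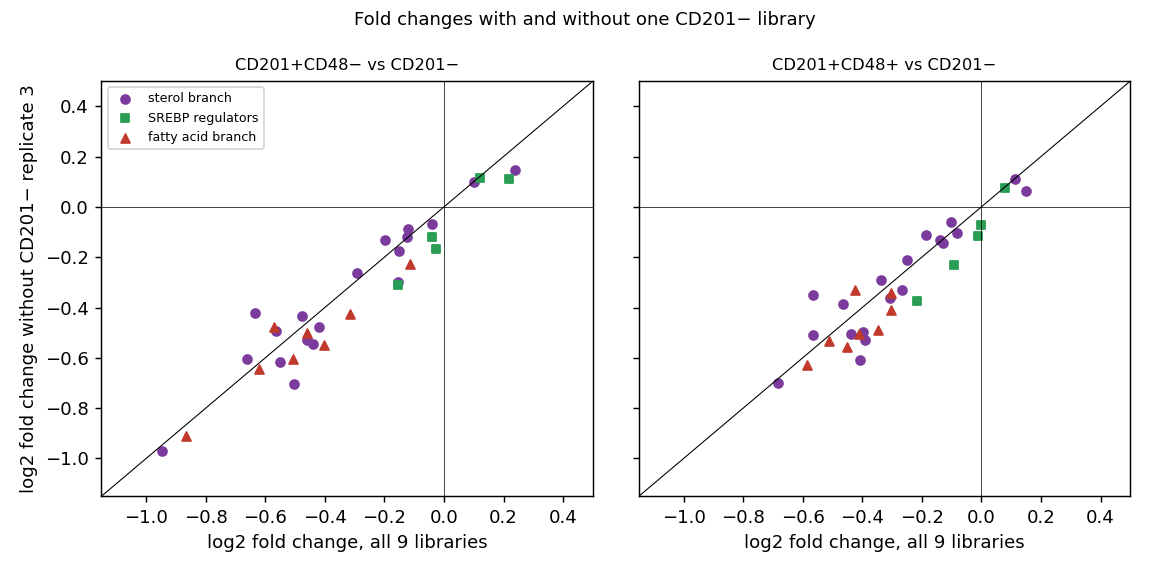
Log2 fold changes of the 32 genes without CD201- replicate 3 (vertical axis) against those from all 9 libraries (horizontal axis), for CD201+CD48- against CD201- cells (left) and CD201+CD48+ against CD201- cells (right), with the line of equality. Fdps and Scd1 are lowest on both axes in the first comparison, and most fatty acid genes and regulators lie below the line. For these fatty acid genes that is further from 0 than with all libraries. Srebf2 and Insig1, above 0 in the first comparison, lie nearer to 0 there without the library.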

How the data were processed

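Bulk RNA sequencing of 9 libraries was analysed, 3 replicates of each of 3 sorted populations. Per the labels' protocols, sorted cells went into Trizol LS, the SMARTer kit served for cDNA, and short paired reads came from a NextSeq instrument. The authors deposited raw whole-number counts per gene symbol, and a table of normalized signal that equalled the deposited counts divided by 1 factor per library (largest relative deviation 5.1e-10) and lacked 26 gene names of the raw table. The submitters' processing notes name mm10 and DESeq2. Not given in the sources used here are the aligner, the counter, the annotation and the strand setting. Columns matching no sample label, 3 in number, were not used.

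The filter was edgeR's filterByExpr (minimum count 10), the scaling TMM, and the test edgeR's quasi-likelihood F test (edgeR 4.0.16, R 4.3.3; robust, 1 fit of all 9 libraries by group, biological coefficient of variation 8.64%). Adjustment was by Benjamini-Hochberg over all 11619 genes. A standard error is the absolute log2 fold change over the square root of F. Alternatives were DESeq2 1.42.0, edgeR with RLE factors or library size alone, all genes with a count, a minimum count of 30, the 6 libraries compared alone, the replicate number as a block, limma-trend (limma 3.58.1) on log2 of the authors' deposited signal plus 1, and the omission of each library in turn, 17 in all. The fit was also run on simulated counts with 200 changed genes, and the outcome is not reported here. Total counts were 3810123 to 7072885 per library.

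All 32 genes are described, and of every other list up to 2 genes per direction and comparison that passed the test at 5 CPM or more with the largest log2 fold changes, of which the text gives those it needs. Members and lists were chosen with earlier results of these data known. Transcript lengths are those of GENCODE vM39, and promoter sequences and gene spans those of RefSeq on GRCm38.p6, read with Python 3.11.15. Figures were drawn with matplotlib 3.10.9. Some genes of the lists are counted but not reported by name.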

Additional observations from a re-analysis of the deposited data

How the results depend on the processing

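Of 96 gene comparisons (32 genes in 3), 38 passed; 22 of them did so in every one of 17 alternatives, 16 were lost in at least 1, and 15 others passed in at least 1. No called difference changed sign. With 3 replicates and a smallest gene count of 53, differences of the size of the Msmo1, Insig2 or Scap means were not called. Replicate numbers gave no sign of pairing: same-numbered libraries deviated from their group means with correlations of -0.113 to 0.0447, against -0.0722 to 0.1 for other pairs. With 3 libraries per group this cannot exclude a culture or animal shared by same-numbered libraries. With the replicate block, the 1 higher gene of CD201+CD48- against CD201- cells became 0, and the lower genes between the CD201+ populations were 1, with 0 in the sterol branch. The cause of changes under an alternative was not tested.

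For CD201+CD48- against CD201- cells the 1 higher gene, Sc5d, was also not called (0 higher) with DESeq2, with all genes counted and with the 6 libraries compared alone. Under library size alone there 3 genes were higher, 2 of them regulators, 7 sterol genes were lower, and the medians were -0.25 for the sterol and -0.32 for the fatty acid branch. In CD201+CD48+ against CD201- cells it gave 1 higher gene, a regulator, 11 lower genes, 5 of them fatty acid genes, and a sterol median of -0.18. Between the CD201+ populations it gave 0 lower genes in either branch and a sterol median of -0.0082. In that comparison DESeq2, RLE factors, the minimum count of 30 and limma-trend each gave 1 lower gene and 0 in the sterol branch, and the 6 libraries alone gave 2 higher (1 fatty acid gene and 1 regulator) and 4 lower (2 in each branch). Library size alone turned the medians of other sterol and isoprenoid enzymes to 0.14 and 0.11, of fatty acid oxidation to 0.077 and 0.11 in the first and second comparisons, and of sterol uptake, storage and efflux to 0.13 in the second.

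Leaving out 1 library at a time moved the first comparison to 0 to 2 higher genes (0 to 1 sterol, 0 to 1 regulators), 0 to 1 lower regulators and a sterol median of -0.42 to -0.31. The second comparison had 5 to 8 lower fatty acid genes and 0 to 2 lower regulators. The third had 0 to 4 lower genes (0 to 2 in each branch), 0 to 2 higher (0 to 1 fatty acid genes, 0 to 1 regulators) and a sterol median of -0.078 to -0.044, and the median of other sterol and isoprenoid enzymes ran from -0.077 to 0.019.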
